A study of Mus musculus with 18 samples.

Results

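The interferon-stimulated genes Ifit1, Ifit2, Ifit3, Isg15, Irf1, Irf7, Stat2, Oasl2 and Bst2 were followed in mouse skeletal muscle. The 9 genes were chosen by name and found by matching Ensembl identifiers to mouse symbols. They are 9 of the 43430 genes in the count table, and all 9 were among the 13596 genes with enough counts to be tested. RNA was sequenced from quadriceps myofibers of adult male and female C57BL/6 mice (C57BL/6J in the methods), a wild-type inbred strain that carries no transgene, after about a month of intraperitoneal prednisone or vehicle. Each sex had a vehicle group, a group given prednisone, a synthetic glucocorticoid, once a week, and a group given it every day. The weekly mice received vehicle on the remaining days. There were 3 libraries in each of the 6 groups, 18 in all, with total counts from 10506661 to 14686654. The study describes the replicates as separate animals.

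Type I interferons bind a receptor whose kinases phosphorylate signalling factors that include STAT2, and with IRF9 these form a complex that binds the interferon-stimulated response element (ISRE) near its target genes. Interferon gamma acts through the gamma-activated site (GAS). The targets are antiviral effectors together with factors that amplify the response, and in muscle they are best known from inflammatory myopathies such as dermatomyositis. Glucocorticoids act through the glucocorticoid receptor and restrain many inflammatory genes.

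Of the 9 genes, 7 hold the core letters of one of these elements close to their start. The ISRE core was searched as GAAA, any 2 bases and GAAA again, and the GAS core as TTCNNNGAA, on both strands, with overlapping matches counted, in the 250 bases before the start of each RefSeq gene. The ISRE core was found in 5 of the 9 genes, against 2.98% of 32851 promoter windows of the same length, and the GAS core in 3 of the 9, against 7.02%. The letters ACANNNTGT, the core of the element bound by the glucocorticoid receptor, were found in 0 of the 9, against 5.84% of windows. The windows below, from RefSeq on GRCm38.p6 and written 5′ to 3′ on the strand of the gene, are shown because the responses to both interferon types are known to run through these elements, and a match of letters is a description, not a site shown to be bound. Capitals mark the matched letters of either core, and an ISRE core on the opposite strand reads TTTC, any 2 bases and TTTC.
Ifit1, chr19:34640779-34640819, plus strand: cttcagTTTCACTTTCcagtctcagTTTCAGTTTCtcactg
Ifit3, chr19:34583367-34583422, plus strand: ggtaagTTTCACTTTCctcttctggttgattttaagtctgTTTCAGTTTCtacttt
Isg15, chr4:156200869-156200902, minus strand: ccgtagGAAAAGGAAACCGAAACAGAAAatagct
Stat2, chr10:128270270-128270291, plus strand: ccctggTTTCAGTTTCctttcc
Bst2, chr8:71537581-71537614, minus strand: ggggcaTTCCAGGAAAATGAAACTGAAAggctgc
Irf1, chr11:53769918-53769938, plus strand: cctgatTTCCCCGAAatgatg
Ifit2, chr19:34550447-34550467, plus strand: gggagcTTCCTGGAAgaatgg
Ifit1 and Ifit3 each held 2 ISRE cores, and Isg15 held 3 that overlapped in a single run. In Bst2 a GAS core ran into 2 overlapping ISRE cores. Irf1 and Ifit2 held only the GAS core, while Irf7 and Oasl2 held neither in this window.

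Levels are given as CPM, read counts scaled to a common library total with a scaling factor for composition, and between genes they were compared only per kilobase of exon. Irf1, a transcription factor of the gamma response, had the highest median level over the 18 libraries, 45.7 CPM per kilobase. Bst2, the membrane protein tetherin that holds budding virus at the cell surface, followed at 22.3 CPM per kilobase, and Isg15, a ubiquitin-like modifier, at 9.26. Stat2 had a median of 3.92 CPM per kilobase, Irf7 of 3.89, Ifit1 of 3.30, Ifit3 of 3.05, Ifit2 of 2.17 and Oasl2, a member of the oligoadenylate synthetase family, of 1.03. The ranges over libraries overlapped for every pair of neighbours in this order. Within libraries, Bst2 exceeded Isg15 in 18 of 18 and Ifit3 exceeded Ifit2 in 18 of 18, whereas Stat2 exceeded Irf7 in only 5 of 18 and Ifit1 exceeded Ifit3 in 8 of 18, so these last pairs had no fixed order.

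The interferon genes themselves gave almost no reads. Of 11 interferon genes listed, 9 had 0 counts in all 18 libraries, and Ifnab and Ifng had 5 counts each among 221541435. A count of 0 allows up to 3 counts in a library, or 0.204 to 0.286 CPM by depth, and covers counting error only. Markers of T and NK cells summed to at most 1.39 CPM in any library and those of plasmacytoid dendritic cells, the main producers of type I interferon, also to at most 1.39 CPM. Macrophage markers summed to 42.2 to 118 CPM, endothelial markers to 522 to 1475 CPM, and the 10 myofibre markers to 122456 to 220722 CPM, so the labelled myofibers were present together with other cells of the muscle. In such bulk samples fewer cells of a type and less RNA per cell cannot be told apart.

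Before the comparisons, 2 libraries stood apart: replicate 1 of the females on weekly prednisone and replicate 1 of the females on daily prednisone. Irf1 was at 19.0 and 15.9 CPM in them, against 62.7 to 392 CPM in the other 16 libraries. Isg15 was at 1.68 and 1.31 CPM, against 2.93 to 17.9 CPM elsewhere. Ifit2 was at 3.95 and 4.38 CPM, against 4.42 to 28.5 CPM. These 3 genes were lowest of all 18 libraries in this pair, which held for 760 of the 13596 genes tested. For 6 of the 9 genes the pair was the lowest of the 9 female libraries, which held for 11.7% of all genes tested. The early response genes, which cells switch on within minutes of a stimulus, moved with them. For 8 of 8 such genes, a list written after these values were seen, the pair was the lowest of all 18 libraries. Atf3, a stress-induced transcription factor, was at 23.7 and 30.9 CPM, against 144 to 658 CPM in the others. Egr2, another early response factor, was at 4.29 and 8.91 CPM, against 29.1 to 117 CPM. The pair also had the lowest mitochondrial shares, 13.1% and 11.7% of counts, against 14.2% to 36.4% in the others. The part of these measures in the levels of the interferon-stimulated genes was not tested, and values without the pair stand beside the results where it changed a call.

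**Figure D1:**
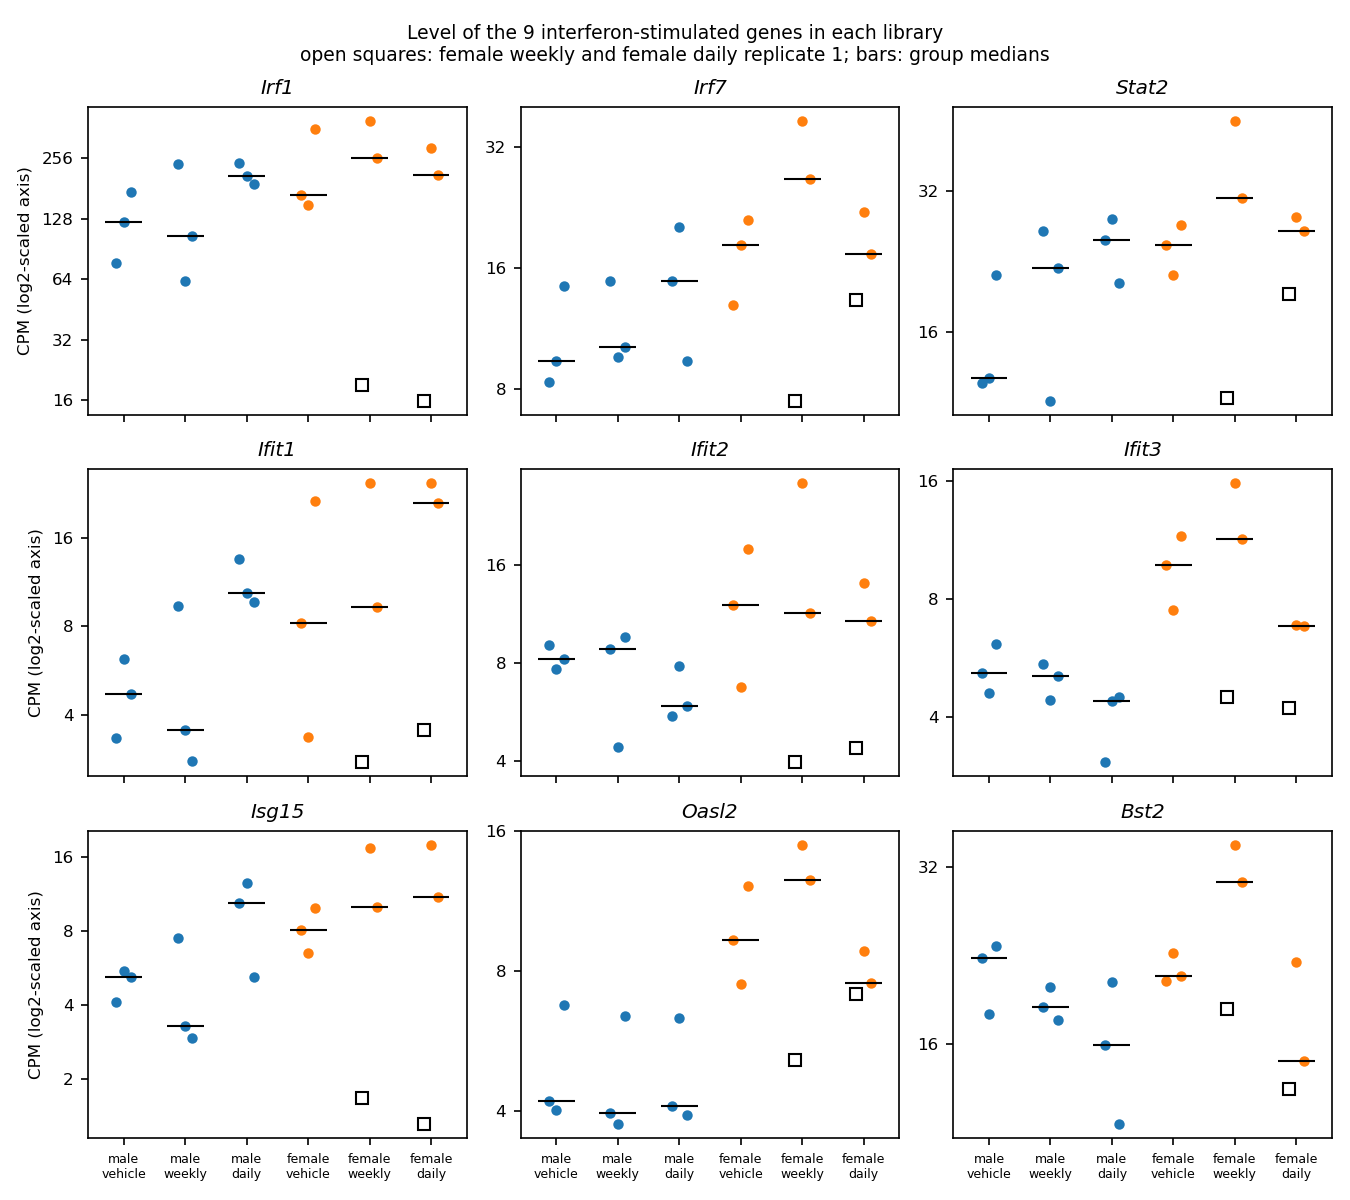
CPM of each of the 9 genes (log2-scaled vertical axes) in the 18 libraries, by sex and treatment, with 1 point per library, a bar at the group median and open squares for replicate 1 of the female weekly and female daily groups. In the Irf1 panel the 2 squares lie at 19.0 and 15.9 CPM, below the other 16 libraries, and in the Oasl2 panel the female vehicle and daily libraries lie above the males of the same treatment.

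The genes differed in how much replicates of a group scattered. The within-group SD of log2 CPM was 1.45 for Irf1, larger than in 99.6% of tested genes, 1.13 for Isg15 and 1.12 for Ifit1, against a median of 0.279 over all genes. It was 0.78 for Ifit2, 0.62 for Irf7, 0.54 for Stat2, 0.46 for both Ifit3 and Oasl2, and 0.31 for Bst2, which is larger than in 56.8% of genes. The share of the variance that lay between the 6 groups was 61.2% for Oasl2, 59.9% for Ifit3 and 50.9% for Bst2, but 11.5% for Irf1 and 13.7% for Isg15. The median over all genes was 42.3%. Ifit3, Oasl2 and Bst2 thus had the smaller spread within groups and the larger share between them, and Irf1 and Isg15 the reverse.

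Deviations from the group means ran in parallel. Over the 18 libraries, which every pair of genes shares, Pearson's r between 2 members had a median of 0.79 over the 36 pairs and ranged from 0.49 to 0.95. With the 2 low libraries left out of the group means and of the correlation the median over 16 libraries was 0.55, with a range from -0.010 to 0.83. The gene whose deviations were most like those of Irf1 was Rnd1 (r = 0.99 over 18 libraries), followed by Zc3h12a, an RNase that cuts inflammatory transcripts, the cytokine gene Il6, the endothelial adhesion gene Sele, and Atf3. Il6 was at 0.134 and 0.307 CPM in the low pair and between 11.6 and 64.5 CPM in the other 7 female libraries. For Isg15 the most similar genes were Adamts4, Plk2, Sertad1, Dusp5 and Tcim, with r of 0.96 to 0.97. Ifit1 was most like Zfp948, with Slfn5, Ccnl1 and Elf4 also among its 5 most similar genes, and Ifit2 most like Vcam1, Cacna1c, Fap, Zmynd8 and Ptpn23. Ifit3 was most like Tmem123 (r = 0.96), Irf7 most like H2-T23, a nonclassical class I gene (0.97), Stat2 most like Hspg2, the basement membrane proteoglycan perlecan (0.96), Oasl2 most like Snx33 (0.95) and Bst2 most like Tmem176b (0.95). Of these 45 most similar genes, 5 for each member, 0 were in the interferon pathway lists. Without the low pair their r was between 0.77 and 0.99, with a median of 0.90, and that of Rnd1 with Irf1 was 0.98. Those lists held 94 of the 13596 tested genes. The mean log2 CPM of the 9 genes was followed without taking out the group means, so its count is not comparable with the 0 of 45. Of its 10 most similar genes, 4 were in those lists, with r of 0.93 to 0.95. They were Tmem173, which encodes the DNA-sensing adaptor STING, Mx2, Trim30a and Irf9. The others were Crtc2, Nlgn2, Gcc1, Vcam1, Neurl3 and Iffo2. Without the low pair the r of these 10 was between 0.88 and 0.95.

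**Figure D2:**
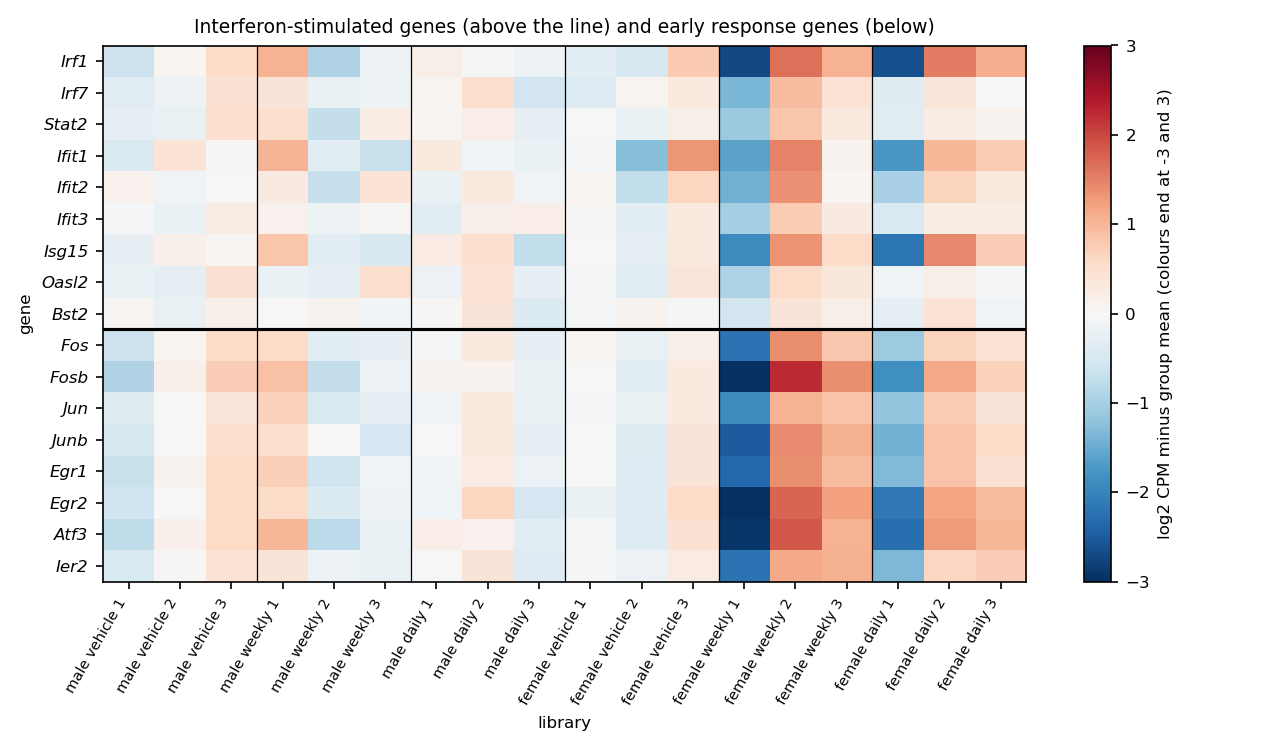
Log2 CPM minus the mean of the group for the 9 interferon-stimulated genes (above the line) and 8 early response genes (below it), genes in rows and libraries in columns, with colours ending at -3 and 3. The columns of replicate 1 of the female weekly and female daily groups are blue for Irf1 (19.0 and 15.9 CPM), Isg15, Ifit1 and the early response genes, and pale for Bst2.

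Daily prednisone was compared with vehicle in males. None of the 9 genes passed an adjusted p of 0.05 in edgeR's quasi-likelihood test, 0 of 9 at an unadjusted 0.05 either and 0 of 9 in DESeq2, where 6.46% of all genes were called by edgeR. Among the factors, Irf1 was at 77.1, 123 and 173 CPM with vehicle and at 241, 209 and 190 CPM on daily prednisone. The groups did not overlap, and the log2 difference was 0.78 ± 0.92 (SE, adjusted p = 0.66) in the fit that shares 1 spread over all 18 libraries. Stat2, a factor of the type I response, was at 12.5, 12.8 and 21.2 CPM with vehicle and 25.2, 27.9 and 20.4 CPM on daily prednisone. Those groups overlapped by 1 library on each side, and the log2 difference was 0.66 ± 0.39 (adjusted p = 0.33). Irf7, the factor that amplifies type I interferon, differed by 0.48 ± 0.45 on the log2 scale (adjusted p = 0.56).

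Among the effectors in males, the Ifit genes encode proteins that bind foreign RNA. Ifit1 was at 3.34, 6.18 and 4.69 CPM with vehicle and at 13.6, 10.4 and 9.69 CPM on daily prednisone. All 3 daily libraries lay above all 3 vehicle libraries, and the log2 difference was 1.25 ± 0.84 (adjusted p = 0.40). It passed only when the 2 groups were fitted alone (1.25 ± 0.24, adjusted p = 0.015), where the spread of the other groups was left out. The share of all genes called in that fit was not counted. Ifit3 was at 5.18, 4.61 and 6.14 CPM with vehicle and at 3.06, 4.40 and 4.50 CPM on daily prednisone, so that the daily libraries lay below the vehicle libraries (log2 difference -0.42 ± 0.35, adjusted p = 0.51). Isg15 differed by 0.94 ± 0.77 on the log2 scale with overlapping groups (4.13 to 5.49 CPM and 5.19 to 12.5 CPM). Bst2 differed by -0.41 ± 0.24, Ifit2 by -0.37 ± 0.58 and Oasl2 by -0.047 ± 0.36. In all, 3 of 9 genes had groups that did not overlap, where 33.4% of all genes did.

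In females on daily prednisone 0 of 9 genes were called (0 at an unadjusted 0.05 and 0 in DESeq2), where 0.382% of all genes were. Ifit3 was at 9.74, 7.50 and 11.6 CPM with vehicle and at 4.22, 6.86 and 6.83 CPM on daily prednisone. It was the 1 gene whose groups did not overlap, against 23.1% of all genes, with a log2 difference of -0.68 ± 0.33 (adjusted p = 0.30). Ifit1 was at 8.21, 3.37 and 21.5 CPM with vehicle and at 3.53, 24.6 and 21.1 CPM on daily prednisone, and Isg15 at 8.04, 6.52 and 9.94 CPM and then 1.31, 17.9 and 10.9 CPM. The daily libraries of both genes lay on either side of the vehicle libraries or within their range, and the log2 differences were 0.57 ± 0.78 and 0.31 ± 0.74. The difference between the sexes in the response to daily prednisone passed for 0 of the 9 genes (smallest adjusted p = 0.89 in edgeR, with 0 at an unadjusted 0.05), where 0% of all genes passed.

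In the mean of both sexes 5 of 9 differences were positive, and 0 of 9 were called, where 15% of all genes were. Of 10 known targets of the glucocorticoid receptor, 9 had positive differences, where 52.9% of all genes did. Of these targets Zbtb16 alone was called (0.56 ± 0.15, adjusted p = 0.019). In males the targets summed to 2367 to 2738 CPM with vehicle and 2952 to 3484 CPM on daily prednisone. In females the sums overlapped, at 1619 to 3422 CPM with vehicle and 2044 to 3221 CPM on daily prednisone. Ifit3 (log2 difference -0.55 ± 0.24, adjusted p = 0.14) and Bst2 (-0.38 ± 0.17, adjusted p = 0.14) passed at an unadjusted 0.05, as 29.2% of all genes did. Without the 2 low libraries, 2 of 9 genes were called, where 22.4% of all genes were. Ifit3 fell by 0.45 on the log2 scale (SE 0.16, adjusted p = 0.048), and Isg15 rose by 0.88 (SE 0.28, adjusted p = 0.036). These 2 libraries were left out because of their low values of Isg15 among others, so the rise of Isg15 is not independent of that choice. Ifit3 shares 51.2% of its 50-base stretches with its neighbour Ifit3b, so reads of the pair may have been assigned to either or dropped. Ifit3b fell as well (log2 difference -0.60 ± 0.16, adjusted p = 0.021), and the summed level of the pair was 10.9 ± 1.44 CPM (SD, n = 3) with vehicle and 7.54 ± 0.99 CPM on daily prednisone in males, and 14.8 ± 3.43 and 9.56 ± 1.92 CPM in females.

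Weekly prednisone was compared with vehicle. In males the 9 genes differed by -0.19 to 0.37 on the log2 scale, and in females by -0.017 to 0.44. In either sex 0 of 9 were called by edgeR, where 0% of all genes were, and 0 of 9 by DESeq2, which called 151 genes in females. At an unadjusted 0.05 in edgeR 0 of 9 passed in either sex, where 5.71% of all genes did in males and 7.97% in females. Groups that did not overlap numbered 0 of 9 in both sexes, against 16.7% of all genes in males and 8.07% in females. The intervals were wide for the scattered genes, with a 95% interval from -1.98 to 1.95 for Irf1 in females, and narrower for Bst2 in males, from -0.69 to 0.31. The difference between the sexes in the weekly response passed for 0 of the 9 genes (0 at an unadjusted 0.05), where 0% of all genes passed.

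**Figure D3:**
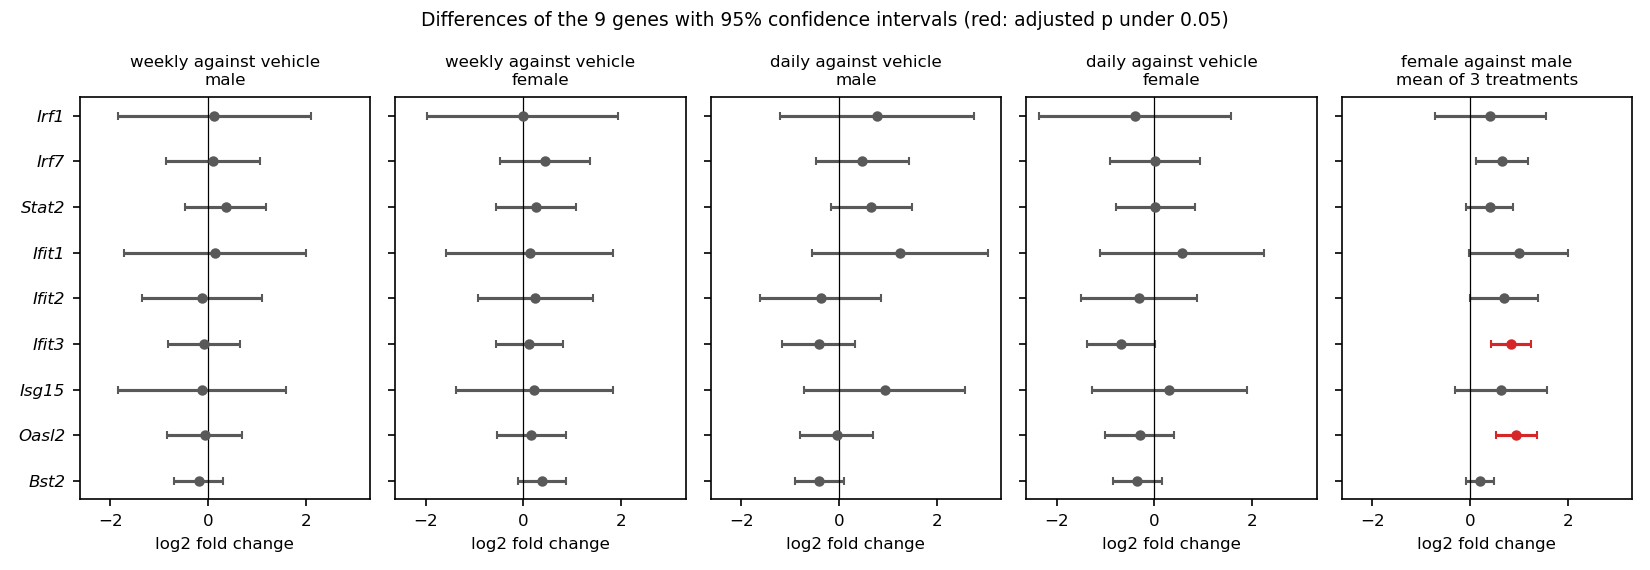
Log2 fold change (horizontal axes, 1 point per gene) with its 95% confidence interval for weekly and daily prednisone against vehicle in each sex and for female against male libraries over the 3 treatments, red where the adjusted p was under 0.05. Ifit3 (0.84) and Oasl2 (0.95) are red in the last panel, and no other point is.

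Daily and weekly prednisone were set against each other, since the study contrasted the 2 regimens. By the methods, the weekly mice last received prednisone 2 days before sacrifice, whereas the daily mice were dosed every day. Regimen and time since the last dose cannot be told apart here. In females Bst2 was at 18.4, 34.9 and 30.1 CPM on weekly prednisone and at 13.4, 22.0 and 14.9 CPM on daily prednisone. The same-numbered libraries were in the same order in both groups, and the log2 difference was -0.72 ± 0.23 (adjusted p = 0.13). With the replicate number as a block, the difference was -0.72 with an adjusted p of 0.034. That pairing was inferred from these same data and is not stated by the labels, so this call is not independent of that choice. The share of all genes called with this block was not counted. Ifit3 was at 4.49, 15.8 and 11.3 CPM on weekly and 4.22, 6.86 and 6.83 CPM on daily prednisone (-0.80 ± 0.33, adjusted p = 0.21). Neither gene was called in the main fit, where 0% of all genes were. Without replicate 1 of the weekly females both passed (Ifit3 -1.17, adjusted p = 0.039, and Bst2 -0.95, adjusted p = 0.040). That library, 1 of the low pair, was the lowest weekly female for both genes, and the low daily library stayed in. Leaving out the weekly library alone raises the weekly means by construction, so these 2 calls are not independent of that choice. The share of all genes called was not counted there. Of the 9 genes, 0 had groups that did not overlap in females, against 17.2% of all genes. In males 0 of 9 were called (0% of genes), and Ifit1 alone had groups that did not overlap, 9.41, 3.55 and 2.79 CPM on weekly against 13.6, 10.4 and 9.69 CPM on daily prednisone, where 24.5% of all genes did. In the mean of both sexes 0 of 9 were called, where 8.17% of all genes were, with Bst2 nearest (-0.47 ± 0.17, adjusted p = 0.090). Without the low pair, Ifit3 (-0.66, adjusted p = 0.024) and Bst2 (-0.52, adjusted p = 0.040) passed, where 8.24% of all genes did. The pair stood apart by its low values, so these calls are not independent of that choice either. Macrophage markers were higher in the same weekly females, at 94.9 to 118 CPM in sum against 59.0 to 75.2 CPM in daily females, and their part in these differences was not tested.

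The sexes were compared next. In vehicle libraries 9 of 9 differences were positive, where 53.4% of all genes were, from 0.0086 (Bst2) to 1.23 (Ifit1) on the log2 scale with females higher. The 9 genes varied together between libraries, so these are not 9 separate observations. None passed the adjusted p (0 of 9), where 0.765% of all genes did. Oasl2 (0.96 ± 0.35) and Ifit3 (0.86 ± 0.34) passed at an unadjusted 0.05, as 10.4% of all genes did. Oasl2 was at 9.31, 7.50 and 12.2 CPM in vehicle females and at 4.21, 4.02 and 6.77 CPM in vehicle males. Isg15 was at 8.04, 6.52 and 9.94 CPM in the females and 4.13, 5.49 and 5.21 CPM in the males. With Ifit3, these were the 3 of 9 genes whose groups did not overlap, where 18.9% of all genes did.

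A comparison of all 9 female with all 9 male libraries, averaged over the 3 treatments, was added after these values were seen. Oasl2 was 1.93-fold higher in females (log2 difference 0.95 ± 0.20, adjusted p = 0.0082) and Ifit3 1.79-fold (0.84 ± 0.20, adjusted p = 0.015), so that 2 of 9 genes were called, where 7.61% of all genes were. Oasl2 ranged from 5.16 over a median of 8.81 to 14.9 CPM in females, and from 3.75 over 4.10 to 6.77 CPM in males. Ifit3 ranged from 4.22 over 7.50 to 15.8 CPM in females and from 3.06 over 4.61 to 6.14 CPM in males. The lowest female libraries of Oasl2 and Ifit3 lay within the male range, and no member had all females above all males, which 0.257% of all genes had. Ifit3b, which shares sequence with Ifit3, was not called between the sexes. The summed level of Ifit3 and Ifit3b was 13.7 ± 4.96 CPM (SD, n = 9) in females and 9.04 ± 1.72 CPM in males. The ranges of this sum overlapped, at 7.37 to 23.4 CPM in females and 6.40 to 11.8 CPM in males. The difference was present within each treatment for Oasl2, at 0.94 in vehicle, 1.09 in weekly and 0.72 in daily libraries on the scale of mean log2 CPM, and for Ifit3 at 0.82, 0.89 and 0.55. The other 7 genes differed by 0.22 (Bst2) to 0.998 (Ifit1) in the same direction without passing, although in daily libraries the mean log2 CPM of Irf1 and Isg15 was lower in females, by -1.10 and -0.43.

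Without the low pair, both of whose libraries are female, 7 of 9 genes passed in that comparison, Irf1 and Bst2 being the exceptions, where 13.6% of all genes did. The pair stood apart by its low values of several of these genes, although for Ifit1 and Irf7 its 2 libraries were not both the lowest of the females. Leaving out low values raises the female means by construction, so the 7 calls are not independent of that choice. Ifit3 was then at 1.02, Oasl2 at 1.08 and Ifit1 at 1.32 on the log2 scale. A macrophage score, the mean log2 CPM of the tested markers rather than their sum, was used as a covariate. With this score 1 of 9 genes passed, Oasl2 at 0.90 (adjusted p = 0.040), where 4.19% of all genes did. Ifit3 was then at 0.83 with an adjusted p of 0.057. Macrophage markers summed to 42.2 to 118 CPM in females (median 75.2) and 60.8 to 79.6 CPM in males (median 69.5), and of the 10 only Fcer1g was called (0.87 ± 0.19, adjusted p = 0.012). Adipocyte markers summed to 662 to 6569 CPM in females and 314 to 1757 CPM in males, with 3 of 10 called. With an adipocyte score, built the same way, as a covariate Ifit3 and Oasl2 stayed called, at 0.97 and 1.07.

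Other genes of the pathway came from lists of interferon receptors, kinases and factors, sensors, effectors, GTPases and the interferon-induced proteasome. Of 119 genes, 117 were in the table and 94 were tested. Between the sexes, 14 rose in females and 3 were lower, 18.1% of the 94 against 7.61% of all genes. Of the 94 differences 85 were positive, where 55.5% of all genes were, with a median of 0.34 against 0.03 over all genes. These genes were named after their values were seen. Among sensors and effectors, Dhx58, a cytoplasmic RNA sensor, was higher by 0.95 ± 0.18 (adjusted p = 0.0043) and Oas1a, an oligoadenylate synthetase, by 0.86 ± 0.21 (0.017). Uba7, the enzyme that activates ISG15, was higher by 0.87 ± 0.19 (adjusted p = 0.011). The GTPase gene Gbp3 was higher by 1.03 ± 0.25 (adjusted p = 0.021). Psmb9, Psmb8 and Psmb10, the 3 catalytic subunits of the immunoproteasome, were higher by 0.95, 0.64 and 0.43, and the genes that rose also included Nlrc5, Trim21, Trim5, Rtp4, Irgm2 and Tap2. The 3 lower genes were the kinase genes Jak1 (-0.38 ± 0.07) and Jak2 (-0.39 ± 0.07), and Irf5 (-1.18 ± 0.26). The count of 17 was 48 without the low pair and 8 with the macrophage covariate, while the genes called over the whole table went from 1034 to 1875 and to 570.

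The same lists were followed under prednisone. On daily prednisone in the mean of both sexes 5 of the 94 genes rose and 3 fell, 8.51% against 15% of all genes. In males alone Jak1 (0.52) and Jak2 (0.46) rose and Psme1, a proteasome activator subunit, fell by 0.55 (3.19% of the 94 against 6.46% of all genes), while 0 of 94 were called in females and 0 on weekly prednisone in either sex. Of the 35 tested antiviral effectors, 30 had a positive difference in daily males and 9 in daily females, where 54.5% and 50.8% of all genes did, with medians of 0.29 and -0.17. On weekly prednisone 24 were positive in males and 32 in females. In each of these comparisons, and in the difference between the sexes on daily prednisone, 0 of the 35 were called. The 12 tested interferon-induced GTPase genes had 12 positive differences in daily males (median 0.45), 10 in daily females (0.15), 11 in weekly males (0.18) and, in females given it weekly, 12 (0.39), of which 0 were called. The interferon-induced proteasome and antigen transport list had 11 of 11 positive differences in weekly females, with a median of 0.45, and 5 of 11 in weekly males, of which 0 were called. In weekly females 51.4% of all genes were positive, and 10 of 10 macrophage markers were, with a median of 0.62, and their part in these differences was not tested.

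The largest rise among the called pathway genes on daily prednisone was that of Ifi27l2a, an interferon-induced mitochondrial protein. It was at 6.58, 5.69 and 5.94 CPM in vehicle males and at 41.4, 20.6 and 15.3 CPM in daily males. In females it was at 5.17, 4.67 and 6.27 CPM with vehicle and 22.8, 23.3 and 48.8 CPM on daily prednisone. All 6 daily libraries lay above all 6 vehicle libraries (log2 difference 2.32 ± 0.47, adjusted p = 0.0053). On weekly prednisone it was between 11.4 and 108 CPM in the 6 libraries, also above every vehicle library, although edgeR called no gene on weekly prednisone. Adipocyte markers moved the same way: 9 of 10 were called on daily prednisone, with a median log2 difference of 3.17, and they summed to 314 to 756 CPM in vehicle libraries and 708 to 3868 CPM in daily libraries. With the adipocyte score as a covariate the difference of Ifi27l2a was 0.40 and its call was lost. The difference of Iigp1 was 1.83 with this score (adjusted p = 0.17), and 0 of the 94 pathway genes were called. The differences of Jak1 (0.41), Jak2 (0.35), Eif2ak2 (0.98) and Psme1 (-0.30) were then within 1.5 times those without it, while those of Irf3 (-0.22) and Ifit3b (-0.39) were smaller by more than that. The genes called over the whole table then fell from 2033 to 24.

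Iigp1, an interferon-inducible GTPase that attacks vacuoles of intracellular parasites, rose by 1.64 ± 0.42 (adjusted p = 0.017). It was at 12.7, 20.2 and 18.5 CPM in vehicle males and 73.5, 67.0 and 62.5 CPM in daily males. In females it was at 34.4, 15.3 and 48.9 CPM with vehicle and 28.4, 117 and 97.4 CPM on daily prednisone, and the lowest of these was the low replicate 1. The male groups were far apart and the female groups overlapped. Eif2ak2, which encodes the double-stranded RNA sensor PKR, rose by 0.79 ± 0.23 (adjusted p = 0.030), Jak2 by 0.40 ± 0.09 (0.0077) and Jak1 by 0.34 ± 0.08 (0.013). Irf3, the factor that starts interferon transcription, fell by 0.44 (SE 0.13, adjusted p = 0.033) and Psme1 by 0.28 (SE 0.08, adjusted p = 0.030), with Ifit3b as the other gene that fell. When 1 of the 12 vehicle and daily libraries was left out at a time, the calls of Irf3 and Psme1 each held in 4 of 12 cases, that of Eif2ak2 in 6, that of Ifit3b in 10 and those of Ifi27l2a, Iigp1, Jak1 and Jak2 in 12. Against weekly prednisone in the mean of both sexes, Jak1 (0.40) and Jak2 (0.42) were higher and Irf3 (-0.49), Psmb9 (-0.84), Psme1 (-0.29) and Psme2 (-0.42) lower on daily prednisone, 6.38% of the 94 against 8.17% of all genes.

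**Figure D4:**
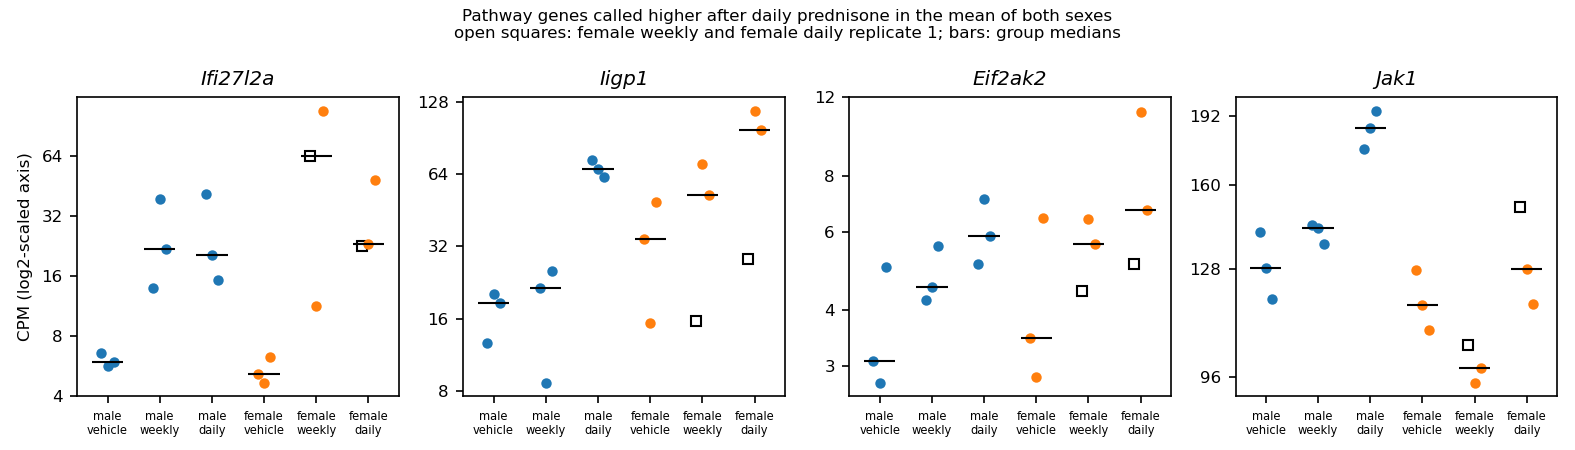
CPM (log2-scaled vertical axes) of 4 pathway genes called higher on daily prednisone in the mean of both sexes, with 1 point per library, a bar at the group median and open squares for replicate 1 of the female weekly and female daily groups. The 6 daily libraries of Ifi27l2a lie above its 6 vehicle libraries, and the male daily libraries of Iigp1 sit between 62.5 and 73.5 CPM, above the male vehicle libraries.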

How the data were processed

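RNA sequencing libraries were made from isolated quadriceps myofibers, the fraction kept by a strainer after collagenase digestion. Groups and replicate numbers came from the labels. The authors aligned reads to mm10 and deposited raw HTSeq counts, 1 whole number for each gene and library. The submitters' processing notes list TopHat2 2.1.0, Bowtie2 2.2.6 and HTSeq. The annotation release and strand setting are not given in the sources used here, so that reads of Irf1 and Irf7, whose exons overlap opposite-strand genes, may or may not have been told apart by strand. Of 43430 identifiers, 42462 matched a symbol, and the 968 others held no more than 0.0814% of any library total.

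The fits used edgeR 4.0.16 under R 4.3.3 (filterByExpr, minimum count 10, TMM scaling, robust quasi-likelihood fit of 6 group means over 18 libraries). Benjamini-Hochberg adjustment ran over all 13596 tested genes, and the threshold was 0.05. Standard errors came from the log2 fold change and its F statistic. Log2 CPM used a prior count of 2. The biological coefficient of variation was 0.224. Exon lengths came from GENCODE mouse release M21. The steps were tested on simulated data. A few genes that met the naming rules are not reported here. Members and gene lists were chosen with earlier results of these data known. Besides the 9 members, the genes named were those of the pathway lists called in a comparison with vehicle or between regimens (at most 6 a list), and the non-members with the highest Pearson r (10 for the members' mean, 5 for each member). Same-numbered libraries of the weekly and daily females deviated together (r of 0.50, 0.48 and 0.44 over genes), while no other pair of groups met that rule, so the numbers were taken to pair only those 2 groups. The labels state no pairing of these animals. The alternatives were DESeq2 1.42.0 and its size factors, no filter, the compared groups alone, macrophage and adipocyte scores as covariates, a replicate block and leaving out each library. Leaving out the 2 low libraries (also from the correlations), the block in weekly and daily females the early response list, the female against male comparison and the genes named for it were added after the data were seen.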

Additional observations from a re-analysis of the deposited data

How the results depend on the processing

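Between the sexes, Oasl2 was called in 26 of 26 alternatives and Ifit3 in 25 of 26, and both in all 18 that left out 1 library. The fit of the compared groups alone repeats the main fit there. The other calls of the 9 genes depended mainly on the 2 low female libraries and on how the spread was shared. On daily prednisone in males 1 of the 9 genes was called, Ifit1, when only the compared groups were fitted. The share of all genes called in that fit was not counted. DESeq2 called 515 genes in daily females (52 in edgeR), 151 in weekly females and 178 in the mean of the sexes on weekly prednisone (0 each in edgeR), with 0 of the 9 among them. The general replicate block called 8 genes in daily females and changed no member's call. The replicate block within weekly and daily females, a pairing inferred from the same data, called 1 member, Bst2. With this block the share of all genes called was not counted either. Without both low libraries 2 members were called on daily prednisone and 2 for daily against weekly prednisone in the mean of the sexes, 7 between the sexes, and 14 and 48 pathway genes instead of 8 and 17. The macrophage covariate left 1 member and 8 pathway genes called between the sexes, and the adipocyte covariate left 0 pathway genes called on daily prednisone. The cause of these changes was not tested. Leaving out 1 library at a time gave 0 to 2 members called for daily against weekly prednisone, in females and in the mean of the sexes, the 2 being reached without female weekly replicate 1. It gave 4 (without male vehicle replicate 1) to 9 pathway genes called on daily prednisone and 10 to 34 between the sexes, with 34 again without female weekly replicate 1.

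Of 864 alternative values of the members' log2 differences from vehicle, 94 had the opposite sign, all of them for values of at most 0.44 in size that had not passed the test. Of the 864, 3 were called, each with its sign kept. With the adipocyte covariate the signs turned in males on weekly prednisone for Ifit2 (0.55), Ifit3 (0.23), Isg15 (0.23), Oasl2 (0.21) and Bst2 (0.0025), in weekly females for Irf1 (0.28), in daily males for Ifit2 (0.29) and Oasl2 (0.23), in daily females for Ifit2 (0.61), Irf1 (0.043) and Oasl2 (0.055), and in the mean of the sexes on daily prednisone for Ifit2 (0.45) and Oasl2 (0.14). Without the low pair they turned for Irf1 in weekly females (0.52) and for Ifit2 (0.017) and Irf1 (0.15) in daily females. Irf1 in weekly females turned to 0.000498 with no filter and to 0.0044 with the compared groups alone. With the macrophage covariate Ifit1 was at -0.20 in weekly females, and Ifit1 (-0.024) and Oasl2 (-0.021) turned in the mean of the sexes. With the replicate block Ifit1 was at -0.014 in weekly females, Ifit2 at -0.0055 and Ifit3 at -0.013 in the weekly mean of the sexes, and with the block in weekly and daily females Isg15 was at -0.0022 for daily against weekly prednisone.

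Leaving out 1 library at a time also turned signs of values that had not passed. In weekly males the ranges were -0.57 to 0.48 for Irf1, -0.12 to 0.38 for Irf7, -0.58 to 0.47 for Ifit1, -0.32 to 0.15 for Ifit2, -0.18 to 0.030 for Ifit3, -0.68 to 0.14 for Isg15 and -0.36 to 0.20 for Oasl2. In weekly females they were -0.75 to 0.52 for Irf1, -0.069 to 0.87 for Irf7, -0.23 to 0.64 for Stat2, -0.93 to 1.04 for Ifit1, -0.71 to 0.69 for Ifit2, -0.32 to 0.49 for Ifit3, -0.53 to 0.74 for Isg15 and -0.17 to 0.50 for Oasl2. In the weekly mean of the sexes they were -0.31 to 0.33 for Irf1, -0.39 to 0.59 for Ifit1, -0.42 to 0.29 for Ifit2, -0.20 to 0.20 for Ifit3, -0.33 to 0.31 for Isg15, -0.12 to 0.22 for Oasl2 and -0.017 to 0.21 for Bst2. On daily prednisone they were -0.31 to 0.25 for Oasl2 in males, -0.99 to 0.15 for Irf1, -0.18 to 0.19 for Irf7, -0.093 to 0.16 for Stat2, -0.68 to 0.062 for Ifit2 and -0.40 to 0.81 for Isg15 in females, and -0.11 to 0.46 for Irf1 in the mean of the sexes. For daily against weekly prednisone in females they were -0.97 to 0.37 for Irf1, -0.85 to 0.087 for Irf7, -0.62 to 0.25 for Stat2, -0.033 to 1.5 for Ifit1, -1.02 to 0.39 for Ifit2 and -0.62 to 0.85 for Isg15. Isg15 rested on as few as 17 counts in a library and Ifit1 on 31, which limits what these depths can show for them. The p values measure only the spread between libraries of a group, which the main fit pools over the 6 groups of 3.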
